A study of Sus scrofa with 20 samples.

Results

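The mitochondrial ribosomal protein genes were taken as the genes whose symbol in the platform annotation begins with MRPL or MRPS and a digit. The array carried 59 such symbols on 78 probe sets. For each gene the brightest probe set was used, and 55 genes whose probe set had a mean over the 20 arrays at or above the filter level of 5.53 (log2) were kept, of 10313 genes measured in this way. MRPL51 (6.11), MRPS18B (6.17) and MRPL41 (6.24) lay just inside the filter. MRPL32 (5.21), MRPL53 (4.98), MRPL44 (4.32) and MRPL9 (3.21) lay below it and were not tested. The rule used no difference between the groups.

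The samples are hippocampi of 20 German Landrace pigs, 10 in the high-reactive (HR) and 10 in the low-reactive (LR) coping group, with 1 Affymetrix Snowball array for each animal and no treatment in either group. Per the study's methods, both groups were picked as extremes in the backtest, a test in early life that turns a piglet onto its back and scores how it struggles, and by their haplotypes at a coping behavior quantitative trait locus (QTL) on chromosome 12 (SSC12). Behavior and haplotype therefore differed together, and their parts cannot be told apart. The methods give the age at slaughter, some months after birth, as an average over the animals and not for each group. The sources used here do not give sex, litter, day of slaughter or batch of the arrays.

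Mitochondria keep a small genome of their own, and the mitochondrial ribosome translates the few proteins it encodes, all of them subunits of the respiratory chain and ATP synthase. The RNA of this ribosome comes from the mitochondrial genome, whereas its proteins are encoded in the nucleus, made in the cytosol and imported. The small subunit holds the messenger and reads the codons, and the large subunit forms the peptide bond. Some of the proteins descend from bacterial ribosomal proteins and others were added in the mitochondrial lineage. Neurons depend heavily on respiration, and inherited defects of several of these genes cause mitochondrial disease in humans. By known subunit, 22 of the 55 measured members belong to the small and 33 to the large subunit, and 37 have a bacterial counterpart while 18 are specific to mitochondria. MRPS30 and MRPS18A carry a small subunit symbol but sit in the large subunit, and were counted there.

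The values are log2 signals normalized to 1 common distribution over arrays. Array medians lay between 5.48 and 5.57. Of 6 neuron markers SYT1, SNAP25, NEFL and STMN2 lay between 11.5 and 12.3, NEFM at 9.44 and RBFOX3 at 6.24. The hippocampal markers NEUROD6, WFS1 and PROX1 were at 9.97, 8.79 and 8.39, and CALB1, at 5.34, fell below the filter. Of 4 markers of skeletal muscle and heart, tissues that should be absent, 3 lay above the filter level and the highest, ACTA1, was at 7.09, above RBFOX3, so the filter level is no limit of detection. Signals of different probe sets depend on their probes and were not compared as amounts of transcript.

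Means over the 20 arrays ran from 6.11 for MRPL51 to 9.63 for MRPS10, with a median of 7.84, and 22 small subunit genes (6.17 to 9.63) and 33 large subunit genes (6.11 to 9.17) covered like ranges. MRPS10, a small subunit protein, had values of 9.41, 9.65 and 9.87 (lowest, median and highest) in HR and 9.36, 9.61 and 9.91 in LR. MRPL17 and MRPL34, both large subunit proteins, averaged 9.11 ± 0.15 and 9.01 ± 0.20 in HR against 9.24 ± 0.17 and 9.11 ± 0.16 in LR (n = 10 each, SD). The spread between animals of 1 group was small for most genes. The SD of the deviations from the group means had a median of 0.20 and a minimum of 0.12, for MRPL46. It was widest for MRPL1 (0.50) and MRPL47 (0.46), followed by MRPL2 (0.33) and MRPS18A (0.29).

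The comparison of HR with LR asked whether the mitochondrial ribosome differed with coping behavior. No member passed the adjusted threshold of 0.05 with limma (0 of 55, adjusted p = 0.283 to 0.968), and neither did any of the 23861 probe sets tested, a background of 0%. At an unadjusted p under 0.05, 6 of 55 members (10.9%) were lower in HR beside a background of 3.74% (3.35% with 1 probe set per gene), and 3 (5.45%) were higher beside a background of 7.78% (7.1%). Either direction was reached by 11.5% of all probe sets. Leaving out 1 array moved the count of lower members to between 0 (without HR replicate 2) and 14 (without LR replicate 9), and that of higher members to between 3 and 6 (without HR replicate 1). The exact Wilcoxon test also gave 0 adjusted calls and 7 members at an unadjusted p under 0.05, without a count over all probe sets. Means were lower in HR for 35 of 55 members (63.6%, background 54.1%), and the median difference of the members was -0.08 log2 beside -0.02 over all 10313 genes, but with arrays centred on the cytosolic ribosomal proteins, which moves the median of all probe sets to 0.12, only 15 of 55 were lower and the median was 0.06. Members share the arrays and varied together, so these counts are not of independent genes. No member had groups that did not overlap (background 0%). In bulk tissue fewer cells of a type and less RNA per cell cannot be told apart.

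Averaged over all 55 members, the signal was 7.77 ± 0.06 in HR against 7.80 ± 0.07 in LR (n = 10 each, SD). The lowest, median and highest arrays were at 7.68, 7.78 and 7.87 in HR and at 7.63, 7.83 and 7.87 in LR. The LR median was exceeded in 1 of 10 HR arrays, while the ranges overlapped, and the low end of LR was 1 array, replicate 9, with the other LR arrays between 7.77 and 7.87.

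Among the small subunit proteins MRPS5, of the family of bacterial ribosomal protein S5, had the smallest p of all members. Its values were 7.69, 8.03 and 8.16 (lowest, median and highest) in HR and 7.56, 7.74 and 7.97 in LR. It exceeded the LR median in 9 of 10 HR arrays, and the difference was 0.23 ± 0.07 log2 (SE, p = 0.00186, adjusted p = 0.283 by limma). MRPS31, a protein found only in mitochondria, was at 7.70, 8.06 and 8.38 in HR and at 7.28, 7.74 and 8.20 in LR, a difference of 0.34 ± 0.12 (p = 0.00903, adjusted p = 0.337). Here too the LR median was exceeded in 9 of 10 HR arrays while the ranges overlapped widely.

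The other 3 small subunit genes with an unadjusted p under 0.05 were lower in HR. MRPS12, whose bacterial counterpart S12 lies at the decoding centre, was at 6.95, 7.27 and 7.61 in HR and at 7.19, 7.51 and 7.91 in LR (-0.21 ± 0.09, SE, p = 0.0317). MRPS34, a mitochondria-specific protein, was at 7.50, 7.79 and 8.07 in HR and at 7.53, 7.93 and 8.22 in LR (-0.18 ± 0.08, p = 0.0413). MRPS11, of the S11 family, was at 7.36, 7.57 and 7.90 in HR and at 7.36, 7.78 and 8.03 in LR (-0.18 ± 0.09, p = 0.0457). In each of these genes 8 or 9 of 10 HR arrays were under the LR median, while both groups spanned most of the same range. The remaining 17 small subunit genes differed by -0.17 to 0.22. The next smallest p-values among those higher in HR were those of MRPS35 (0.22 ± 0.12, p = 0.0828), MRPS14 (0.14 ± 0.09, p = 0.143) and MRPS16 (0.13 ± 0.08, p = 0.147).

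In the large subunit 3 genes were lower and 1 higher in HR at an unadjusted p under 0.05. MRPL19, of the L19 family, was at 7.21, 7.78 and 7.94 in HR and at 6.93, 7.47 and 8.01 in LR, a difference of 0.30 ± 0.11 (SE, p = 0.0118, adjusted p = 0.339 by limma). In HR 9 of the 10 arrays lay between 7.70 and 7.94, and HR replicate 1 alone was low at 7.21. The LR arrays were spread over more than the whole HR range.

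MRPL46, a mitochondria-specific protein, was at 7.95, 8.19 and 8.43 in HR and at 8.17, 8.32 and 8.45 in LR (-0.15 ± 0.06, SE, p = 0.0260). MRPL27, whose bacterial counterpart L27 reaches towards the peptidyl transferase centre, was at 7.35, 7.74 and 8.01 in HR and at 7.39, 7.97 and 8.32 in LR (-0.23 ± 0.10, p = 0.0393). MRPL45, which lies near the exit of the nascent chain and helps to tether the ribosome to the inner membrane, was at 7.46, 7.60 and 7.85 in HR and at 7.43, 7.86 and 8.20 in LR (-0.18 ± 0.09, p = 0.0440). MRPL45 was the only member with all 10 HR arrays below the LR median, although LR replicates 9 and 10, at 7.43 and 7.44, lay below every HR array.

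**Figure D1:**
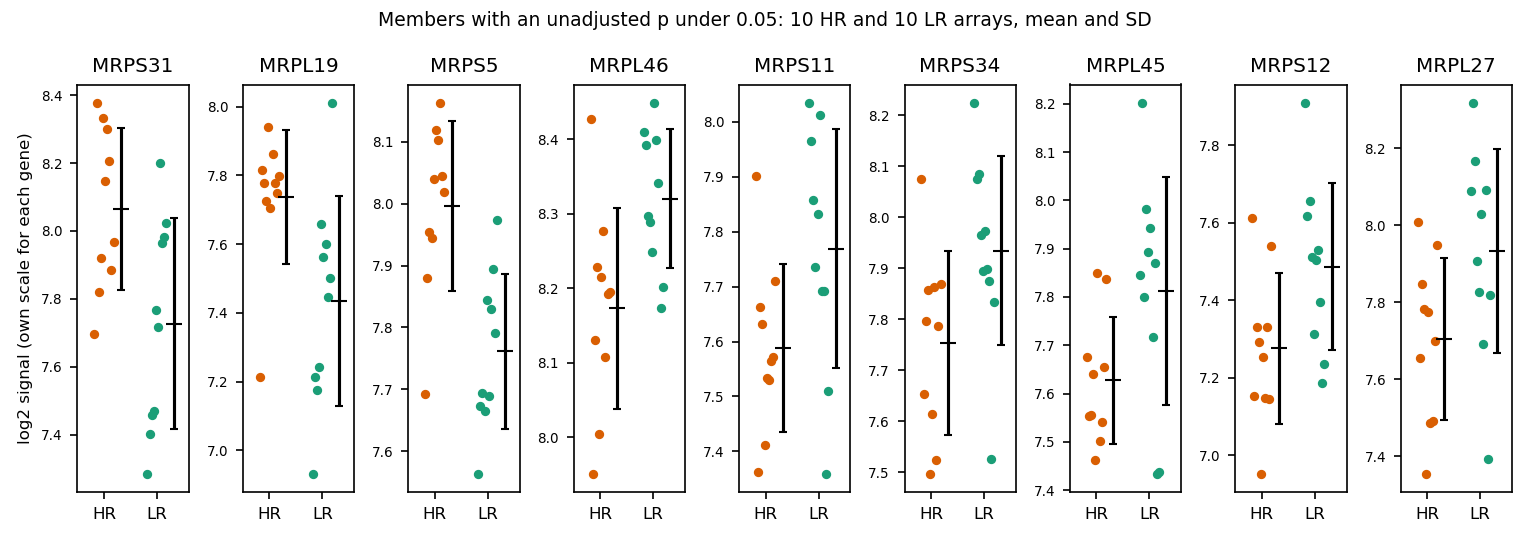
Log2 signal of the 9 members with an unadjusted p under 0.05, with 10 HR arrays left and 10 LR arrays right in each panel and the mean and SD beside them as a black bar. Each gene has its own axis, HR is higher in 3 genes (MRPS31, MRPL19, MRPS5) and lower in 6, and the groups overlap in every panel; none passed the adjusted threshold.

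The remaining 29 large subunit genes differed by -0.25 to 0.30. MRPL12, the stalk protein that also binds the mitochondrial RNA polymerase in human cells, had a mean of 7.36 ± 0.23 in HR against 7.56 ± 0.20 in LR (SD, n = 10 each), a difference of -0.19 ± 0.09 (SE, p = 0.0531 by limma). MRPL10, which anchors MRPL12 to the stalk, had 7.09 ± 0.21 in HR against 7.14 ± 0.20 in LR (SD). MRPL37 differed by -0.20 ± 0.10 (SE, p = 0.0547). MRPS30, in the large subunit despite its symbol, differed by 0.21 ± 0.10 (p = 0.0544) and MRPS18A by -0.22 ± 0.12 (p = 0.0805). MRPL2, of the family next to the peptidyl transferase centre, had the most negative difference of all members, -0.25 ± 0.14, and did not reach an unadjusted p under 0.05 (p = 0.0905). Its LR values ran from 7.32 to 8.58. MRPL1, of the movable L1 stalk, had values of 6.89, 7.76 and 8.55 in HR and 6.44, 7.49 and 8.04 in LR, so a mean difference of 0.30 ± 0.21 was within its spread (p = 0.155).

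A second probe set above the filter existed for 11 members, and it did not always follow the brightest. For MRPL19 the second differed by 0.31 (p = 0.00675) beside 0.30, and for MRPL45 by -0.27 (p = 0.0296) beside -0.18. For MRPL35 the brightest differed by 0.07 and the second by 0.37 (p = 0.0107), although both varied together over the arrays (r = 0.891, n = 20). MRPL22 had a difference of -0.21 (p = 0.0595) in the brightest and -0.26 (p = 0.0108) in the second, and their values hardly varied together (r = 0.0949). The second probe set of MRPL27 had the opposite sign, 0.11 against -0.23, and ran against the brightest over the arrays (r = -0.722). The value of MRPL27 is therefore uncertain. For MRPL37 the other probe sets differed by 0.02 and -0.13, and for MRPS26 the brightest differed by -0.12 and the second by -0.20 (p = 0.0406).

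The members did not vary as 1 unit. With the group means taken out, the mean correlation over all 1485 pairs of members was 0.118 (n = 20 arrays, all pairs sharing the arrays and their normalization) beside 0.0247 over all pairs of measured genes, and 40.1% of the pairs had r above 0.5 while 21.5% had r below -0.5, beside 22.0% and 20.7% over all genes. Average-linkage clustering on these correlations gave 2 blocks that ran against each other. The first held 17 genes and is called the MRPL1 block: MRPL1, MRPL3, MRPL19, MRPL35, MRPL39, MRPL47, MRPL50, MRPS5, MRPS9, MRPS10, MRPS14, MRPS16, MRPS18C, MRPS22, MRPS30, MRPS31 and MRPS35. The other 38 genes form the MRPS7 block.

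Within the MRPL1 block the mean correlation was 0.64, within the MRPS7 block 0.56 and between the blocks -0.47, with 624 of 646 pairs between them negative. MRPL1 and MRPL47 went up and down together from array to array (r = 0.948), while MRPL1 and MRPS2 went opposite ways (r = -0.933). One axis held 62.4% of the variance of all members and the next 7.63%. The blocks were chosen from these values, so their separation has no test. The split made from the HR arrays alone put 55 of 55 genes in the same block as the split from all arrays, that from the LR arrays alone 54, with MRPL22 as the exception, and leaving out any 1 array changed the block of none. With the split from HR alone read in the LR arrays, which it did not use, the correlation between the blocks was -0.46. With the split from LR read in the HR arrays it was -0.47. All 17 genes of the MRPL1 block and 0 of the MRPS7 block correlated positively with the first component of the other probe sets, described below. That component ran through both groups, so a split that carries over between them is no evidence of a structure particular to this family.

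**Figure D2:**
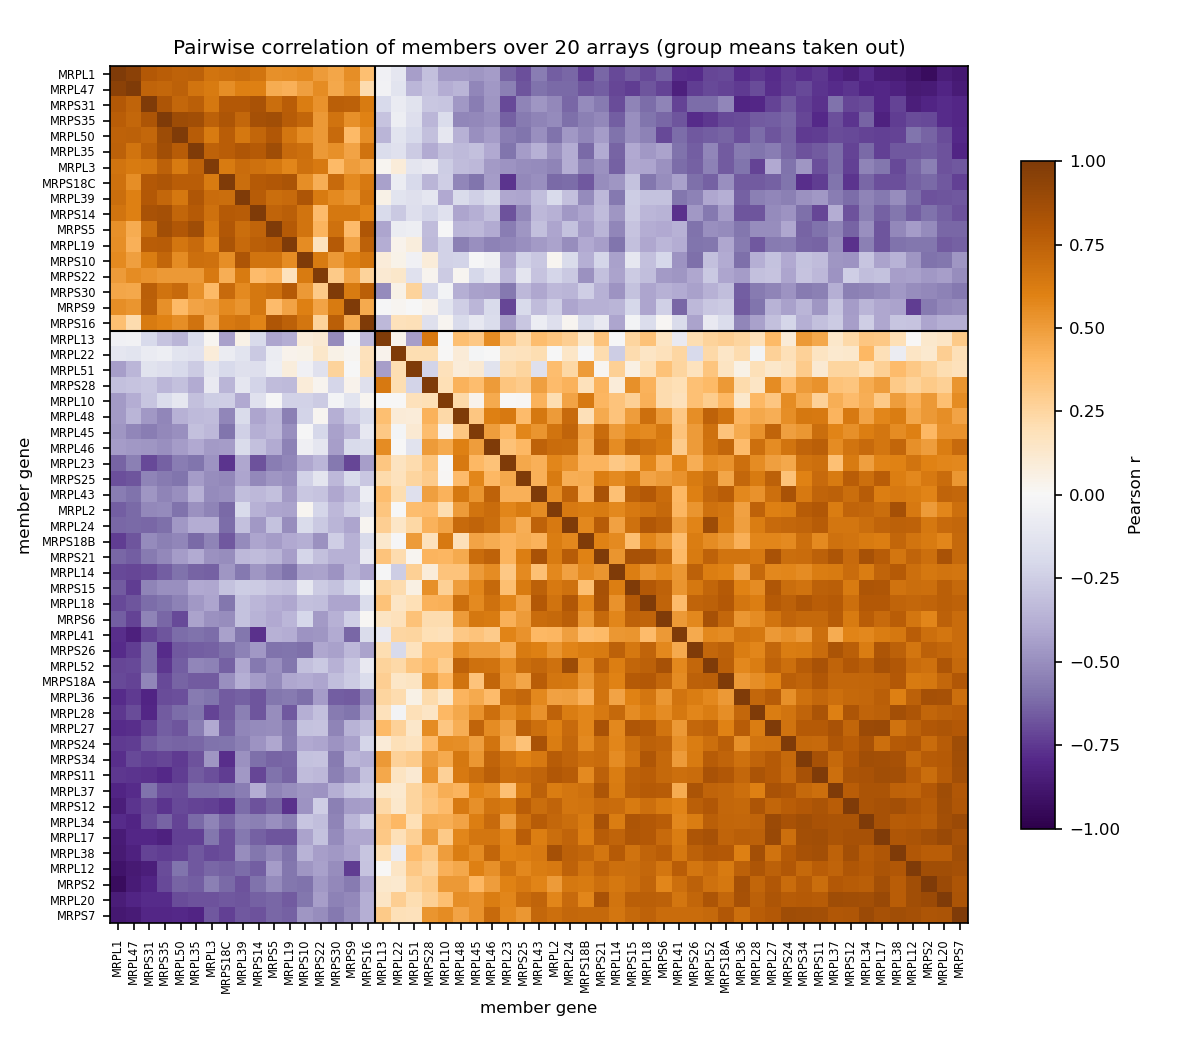
Pearson correlation of each pair of the 55 members over 20 arrays after the group means were taken out, ordered by block (17 genes of the MRPL1 block above and left of the black lines, 38 genes of the MRPS7 block below and right). Brown squares are positive and purple squares negative; the mean is 0.64 and 0.56 within the blocks and -0.47 between them.

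Some members stood at the edge of their block. MRPL22, MRPL51 and MRPL13 had weak ties to the rest of the MRPS7 block, where the lowest correlation of a gene with the mean of the other block members was 0.162, against a median of 0.807. MRPS16 and MRPS10 were the least opposed members of the MRPL1 block, and their correlations with the mean of all other members were 0.0917 and 0.00829. The closest to the mean of the others were MRPS15 (0.846), MRPS21 (0.843), MRPL18 (0.836) and MRPL24 (0.810), and the most opposed were MRPL47 (-0.706), MRPL1 (-0.703), MRPS31 (-0.482) and MRPS35 (-0.476).

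**Figure D3:**
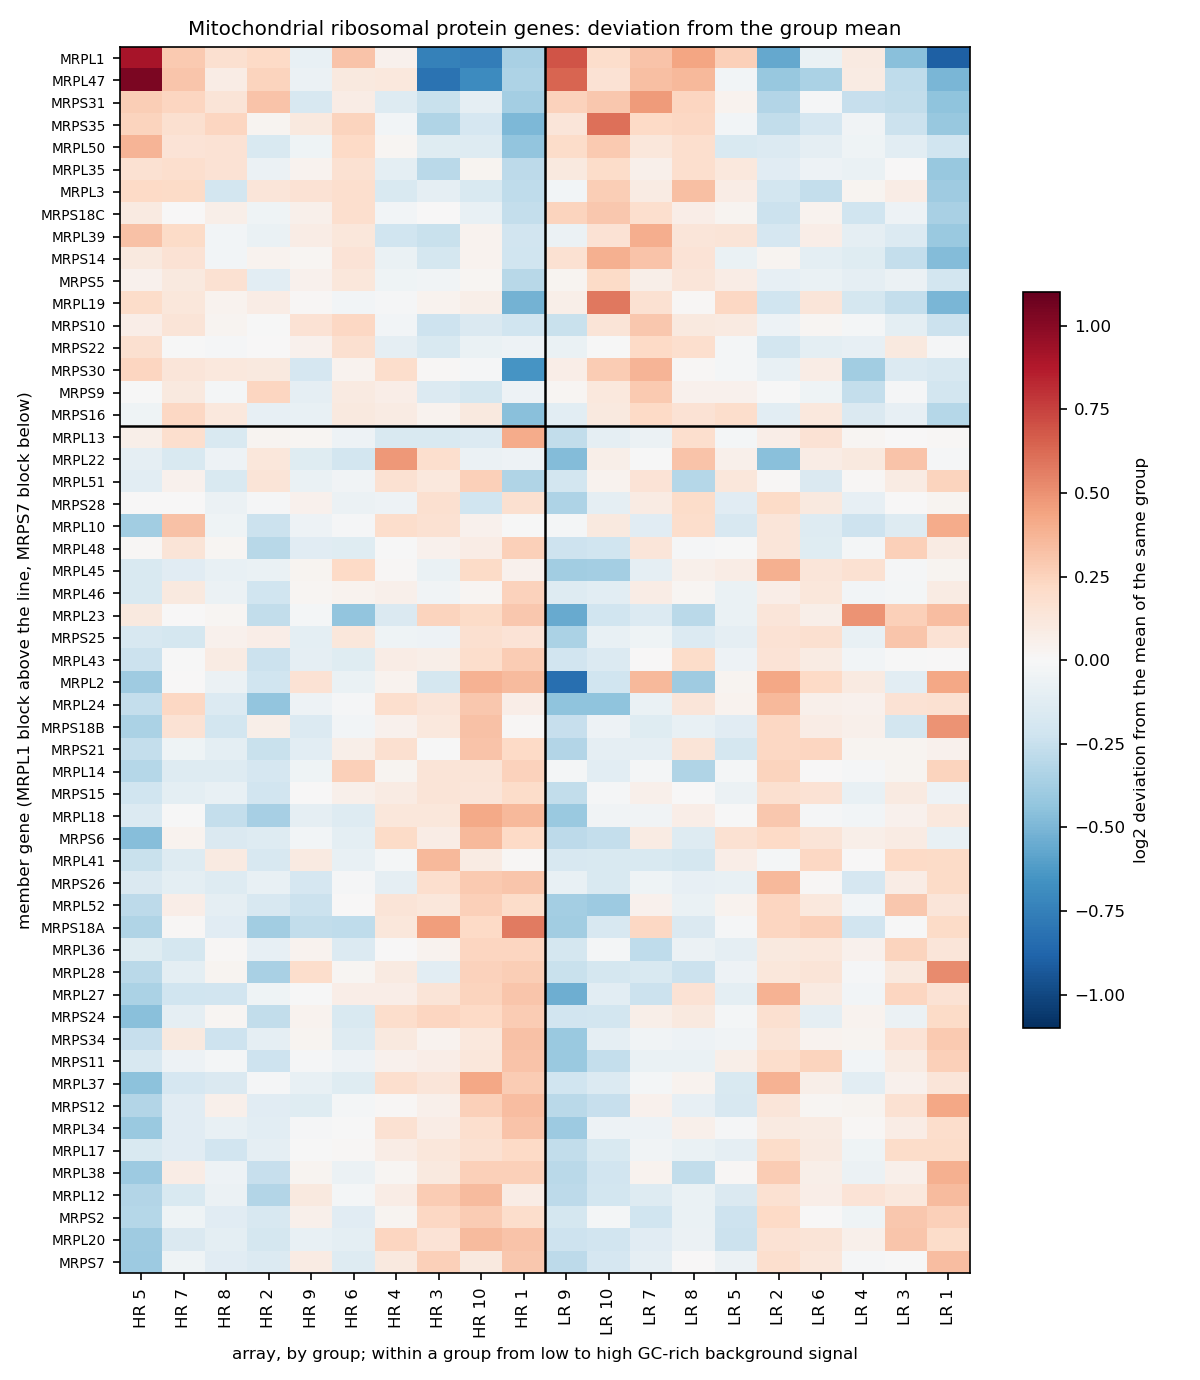
Deviation of each member (rows, log2) from the mean of its own group in each array (columns), with 10 HR arrays left and 10 LR arrays right, each group ordered by its GC-rich background control signal from low to high. The MRPL1 block above the line is high (red) in arrays of low background and low (blue) in arrays of high background, and the MRPS7 block below the line runs the other way.

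The blocks took opposite sides in the comparison of HR with LR as well. In the MRPL1 block all 17 genes had a higher mean in HR, also with arrays centred on the median. Centring on the cytosolic ribosomal proteins, which averaged 9.15 in HR and 9.29 in LR, raises every difference alike. It could not turn a higher mean into a lower one and is no check of this block. The median difference of the MRPL1 block was 0.14, and 3 of its genes had an unadjusted p under 0.05. In the MRPS7 block 35 of 38 genes had a lower mean in HR, with a median of -0.12 and 6 genes at an unadjusted p under 0.05. With arrays centred on the cytosolic ribosomal proteins 15 of 38 were lower and the median was 0.02. That shift is the same for every gene, so it shows only that the sign depends on the reference used. Over all 10313 genes 55.6% had a lower mean in HR, and 3.35% were lower and 7.1% higher at an unadjusted p under 0.05. Shares among other genes on the same side of the first component were not counted. The exceptions in the MRPS7 block were MRPL51 (0.09 ± 0.08, SE), MRPS21 (0.09 ± 0.09) and MRPL48 (0.01 ± 0.08). The mean of the MRPL1 block had a lowest, median and highest array of 7.71, 8.06 and 8.29 in HR and of 7.51, 7.88 and 8.13 in LR. The mean of the MRPS7 block had 7.40, 7.62 and 7.87 in HR and 7.47, 7.75 and 7.97 in LR. In 8 of 10 HR arrays the MRPL1 block lay above the LR median and in 7 the MRPS7 block lay below it, with wide overlap of the groups.

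Several measures of the arrays moved with the balance of the blocks. The first principal component of all kept probe sets but the members held 47.9% of their variance, and the difference between the block means followed it closely (r = 0.972 over 20 arrays with the group means taken out, 0.976 within HR and 0.979 within LR). It ran against the signal of 24 background control probe sets whose probes hold at least 18 G or C in 25 bases and match no pig transcript (r = -0.929, within HR -0.944, within LR -0.916). That control signal was 7.31 ± 0.20 in HR against 7.50 ± 0.20 in LR (n = 10 each, SD), and in HR 9 of 10 arrays were under the LR median. The number in the sample titles, whose meaning is not stated, averaged 2863 ± 109 in HR and 2601 ± 225 in LR and followed the balance with r = 0.668 (within HR 0.459, within LR 0.815).

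With the control signal as a covariate the median difference of the MRPL1 block was -0.03 and that of the MRPS7 block 0.01, with 6 of 17 genes higher and 16 of 38 lower in HR. With the title number they were -0.07 and 0.01, with 5 of 17 higher and 16 of 38 lower. The correlation between the blocks was near 0 after regression on the first component made without the members (mean r between blocks 0.07) or on the control signal (-0.01). The correlation within the blocks fell as well. In the MRPL1 block it went from 0.64 to 0.25 with the component and 0.27 with the control signal, and in the MRPS7 block from 0.56 to 0.12 and 0.28. Of the 9 members with an unadjusted p under 0.05, 0 reached it with the title number, 1 with the control signal (MRPS5, 0.14, p = 0.0183) and 4 with the first component (MRPS5, MRPS31, MRPL19 and MRPL46). The part of these measures in the differences of single genes was not tested.

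**Figure D4:**
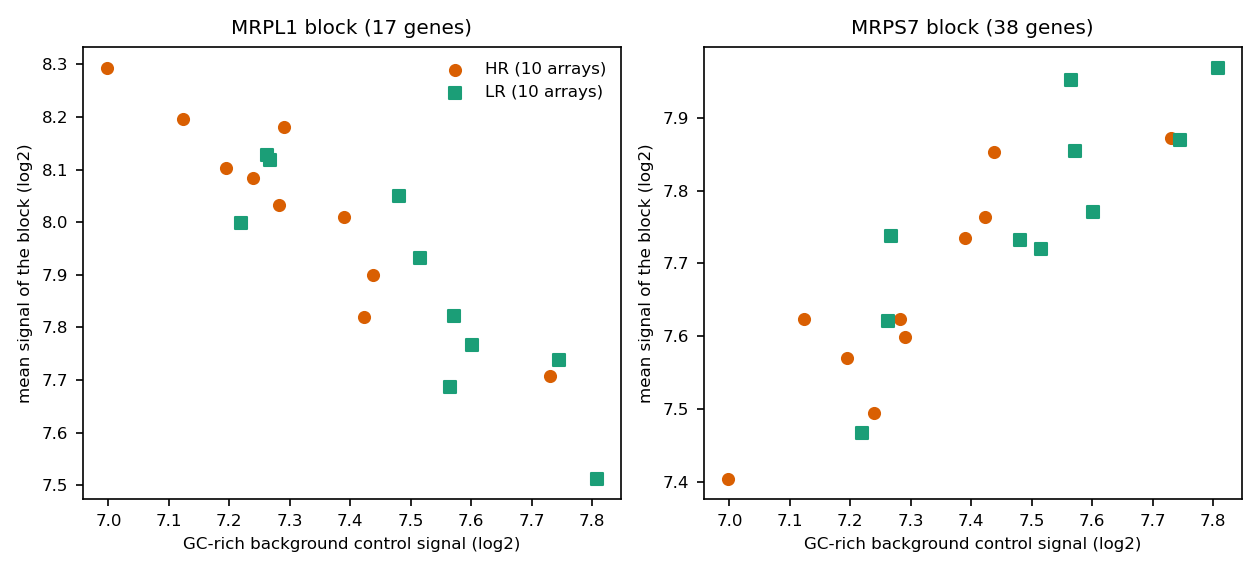
Mean log2 signal of the MRPL1 block (left panel) and of the MRPS7 block (right panel) against the mean log2 signal of the GC-rich background control probe sets, with 1 point for each array, HR as circles and LR as squares. The MRPL1 block falls from 8.29 to 7.51 as the background rises and the MRPS7 block goes up, in both groups alike.

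The means of some cell type marker lists moved with the blocks too, and those of others only weakly. The mean of the neuron markers, all 6 of them measured, followed the balance of the blocks with r = 0.965 and was 10.72 ± 0.16 in HR against 10.56 ± 0.17 in LR (n = 10 each, SD), ranging from 10.43 to 10.97 in HR and from 10.29 to 10.87 in LR. The mean of the astrocyte markers (5 of 5 measured) followed it with r = 0.784, although AQP4 (0.925), SLC1A2 (0.927) and SLC1A3 (0.833) varied with the first component and GFAP (-0.773) and ALDH1L1 (-0.790) against it. The mean of the microglia markers (3 of 5) ran against the balance of the blocks with r = -0.771. So did the 3 measured markers of muscle and heart, tissues that should be absent, with -0.847. Of the neuron markers, 5 of 6 went up with the first component and RBFOX3 went down. The means of the other marker lists followed the balance less closely, with r from -0.653 for endothelium to 0.663 for ependyma. Among them were interneurons (-0.173), oligodendrocytes (-0.319) and oligodendrocyte precursors (0.367). These means averaged markers that took opposite sides of the first component, so a weak mean does not stand for weak markers. GAD2 (0.786) varied with it and SST (-0.729) and PVALB (-0.539) against it. MOBP (0.735) stood against MAG (-0.865), with MBP (-0.218) and MOG (-0.198) weak, and PDGFRA (0.780) against CSPG4 (-0.772). Of the hippocampal markers NEUROD6 (0.911) and PROX1 (0.730) varied with the first component and WFS1 (-0.902) against it. The part of cell composition in the result was not tested.

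**Figure D5:**
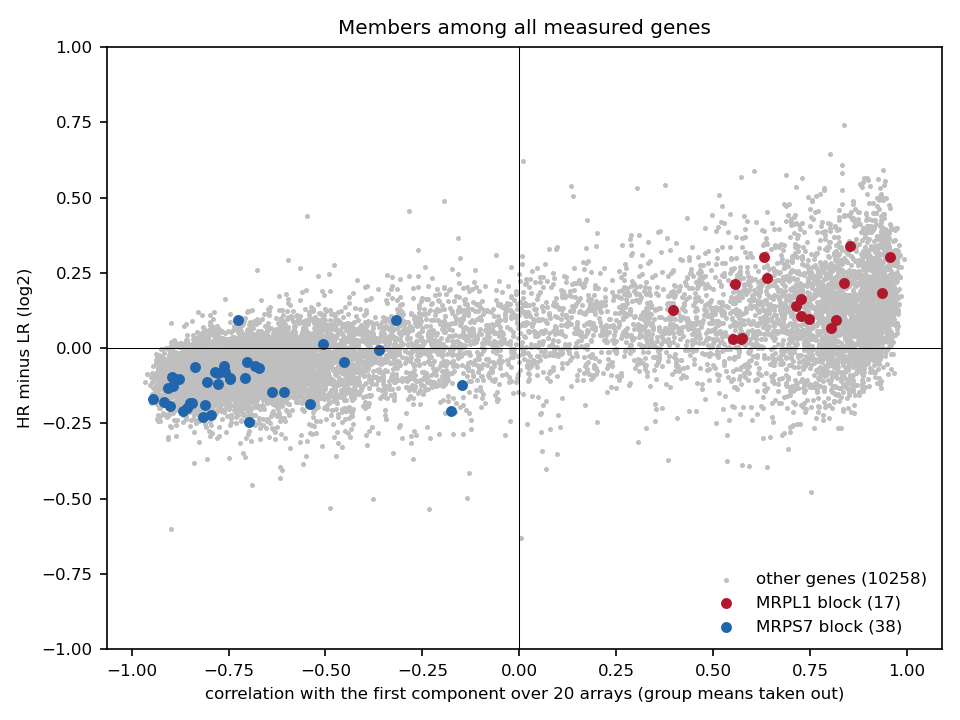
HR minus LR difference (log2) against the correlation with the first component over 20 arrays, group means taken out, for 55 members (red, MRPL1 block; blue, MRPS7 block) and 10258 other genes in grey, of which 1 lies outside the axis range. The members lie within the cloud of all genes, with the MRPL1 block at positive and the MRPS7 block at negative correlations. Centring on the cytosolic ribosomal proteins, which raises every difference alike, turns the median difference of the MRPS7 block positive.

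The blocks did not divide the ribosome by its parts. The MRPL1 block held 9 small and 8 large subunit proteins, 11 with a bacterial counterpart and 6 specific to mitochondria. The MRPS7 block held 13 small and 25 large subunit proteins, 26 with a bacterial counterpart and 12 specific ones. A property of the genes that the clustering did not use did differ in level. It was the genomic span of a gene, exons and introns together in the RefSeq annotation of the assembly Sscrofa11.1. The median span was 29.5 kb in the MRPL1 block and 6.37 kb in the MRPS7 block, beside 29.4 kb over 10285 genes. The MRPL1 block was thus near the median of all genes and the MRPS7 block below it. Both ranges overlapped, from 3.62 to 225 kb and from 0.675 to 99.3 kb. Longer members lay higher on the first component (r = 0.501 between log span and the correlation with that component, across 55 genes), as did longer genes in general (r = 0.380 across 10285 genes). Genes are not independent replicates, and no p is given.

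Other large protein complexes are set beside the members as a description. Over all 10313 genes 55.6% had a lower mean in HR, and 3.35% were lower and 7.1% higher at an unadjusted p under 0.05. Cytosolic ribosomal proteins (48 genes) were lower in HR in 46, with a median of -0.14 and 18 lower and 0 higher at an unadjusted p under 0.05, and their mean pairwise correlation was 0.362. Respiratory chain and ATP synthase subunits (56 genes), the complexes that hold the products of the mitochondrial ribosome, had a median of -0.08 with 6 lower and 4 higher, and a mean correlation of 0.279. Constitutive proteasome subunits (31 genes) had a median of -0.07 with 2 lower and 0 higher, and a mean correlation of 0.098. None of these lists had a gene past the adjusted threshold. A division of the genes by the sign of their correlation with the first component was found in each list, with 30.9% of the members, 20.8% of the cytosolic ribosomal proteins, 23.2% of the respiratory chain genes, 41.9% of the proteasome genes and 38.6% of all genes on the positive side.

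Proteins that work with the mitochondrial ribosome showed few differences. Of 4 small subunit proteins with other symbols, AURKAIP1 was lower in HR at an unadjusted p (-0.24 ± 0.09, SE, p = 0.0132, adjusted p = 0.344 by limma), with means of 7.65 ± 0.19 in HR against 7.89 ± 0.21 in LR (n = 10 each, SD), and it varied with the MRPS7 block (r = 0.813) and against the MRPL1 block (r = -0.816). DAP3 (0.06 ± 0.06), PTCD3 (0.03 ± 0.07) and CHCHD1 (-0.06 ± 0.06) did not reach an unadjusted p under 0.05, and neither did ICT1, a release factor built into the large subunit (0.02 ± 0.07). Among 9 translation factors 0 reached it. TUFM, the elongation factor that brings the charged tRNA, differed by -0.15 ± 0.10, and GFM1, which moves the ribosome along the messenger, by -0.05 ± 0.18.

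Single partner genes varied with either block, some of them weakly. TUFM varied with the MRPS7 block (r = 0.848) and GFM1 and MTRF1L, a release factor, with the MRPL1 block (r = 0.783 and 0.856), while DAP3 had r = 0.458 with the MRPL1 and -0.178 with the MRPS7 block and NSUN4, a protein of large subunit assembly, had -0.195 and 0.408. The 6 measured genes listed for insertion and assembly at the inner membrane were OXA1L, LETM1, AFG3L2, SPG7, PHB and PHB2. All 6 correlated negatively with the first component, where 38.6% of all genes were on the positive side. No gene reached an unadjusted p under 0.05 in the lists that follow. They held 12 genes for assembly and rRNA modification and 13 aminoacyl-tRNA synthetases and related enzymes. They also held 9 genes for transcription and handling of mitochondrial RNA and the 6 inner membrane genes. The largest positive differences in these lists were 0.20 ± 0.10 for TFB1M, an rRNA methyltransferase, and 0.19 ± 0.18 for RARS2, the arginyl-tRNA synthetase. LRPPRC, which stabilizes mitochondrial messengers, was at 8.12 in HR and 8.32 in LR, a difference of -0.19 ± 0.21 (SE).

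Regulators of mitochondrial biogenesis act upstream of these genes. Of 9 measured, 2 were higher in HR at an unadjusted p under 0.05 and 0 lower, beside 7.1% and 3.35% of all genes. PPARGC1A, the coactivator known as PGC-1 alpha, differed by 0.40 ± 0.16 (SE, p = 0.0205, adjusted p = 0.371 by limma) and YY1, a transcription factor, by 0.25 ± 0.11 (p = 0.0299, adjusted p = 0.390). Over the arrays PPARGC1A varied with the MRPL1 block (r = 0.851) and against the MRPS7 block (r = -0.848), and YY1 had 0.715 and -0.417. PPARGC1A also followed the first component (r = 0.886). NRF1 (-0.02 ± 0.06) and GABPA (-0.01 ± 0.14), transcription factors known to bind promoters of respiratory genes, had differences within their error.

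The members lie across the genome. In Sscrofa11.1, 53 were placed on 16 chromosomes and 2, MRPL41 and MRPS2, were unplaced. On chromosome 12, which carries the coping QTL, lay 6 members (MRPL10, MRPL12, MRPL27, MRPL38, MRPL45 and MRPS7). All were of the MRPS7 block, with differences of -0.23 to -0.05. That block holds 38 of the 55 members, and 35 of its 38 genes had a lower mean in HR. None of the 53 placed members lies in the stretch between METTL16 and ATP1B2, which bound the QTL region as far as the study names protein-coding genes in it. MRPS11 and MRPL46 are neighbours on chromosome 1, 38 bases apart, and varied together (r = 0.762, n = 20 arrays). Of the other 5 pairs of members within 1 Mb of each other, MRPL38 and MRPS7 had r = 0.860, MRPL2 and MRPS18A 0.650, MRPL14 and MRPS18A 0.598, MRPL10 and MRPL45 0.0389 and MRPL2 and MRPS10 0.0166, beside the mean of 0.118 and a median of 0.264 over all pairs of members.

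The genes outside the family whose pattern over the 20 arrays was most like the mean of all members, with the group means taken out, were EIF2B2 (r = 0.943), PIGU (0.941), LOC100517166 (0.914), DDOST (0.913), APEX2 (0.909) and NUTF2 (0.906). All of them also varied against the first component, with r from -0.553 for LOC100517166 to -0.855 for DDOST, so the likeness is not particular to the family. Their differences between HR and LR ran from -0.15 for EIF2B2 to 0.07 for LOC100517166, and none had an unadjusted p under 0.05.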

How the data were processed

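The values used are the deposited log2 probe set values, made by the authors in Affymetrix Expression Console with the robust multichip average, RMA. Arrays were scanned with GCOS 1.1.1 per the submitters' processing notes. RMA gives all arrays the same distribution, which hides any shift that most transcripts share. The study's detection calls were not used here. Without the 123 control probe sets, the 23861 of 47722 others with a mean over 20 arrays at or above the median of the means were kept. Groups came from the coping pattern label. Arrays have no read depth, and their number limits the precision. The test of HR against LR was that of limma 3.58.1 (lmFit, then eBayes, two-sided) in R 4.3.3, adjusted by Benjamini-Hochberg over the kept probe sets at 0.05, and p-values measure the spread between animals of a group. The fit was tested before use on simulated data with independent noise for each probe set. That test does not cover the variation that genes share in the real arrays. The ± values are SE for differences and SD for group means.

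The members, gene lists and tests were chosen with earlier results of these data known. Members named were the 8 per direction with the smallest p, the 5 with the highest and the 5 with the lowest signal, the 4 most variable, the 4 most and the 4 least correlated with the other members, those nearest the filter, those with probe sets of opposite sign and those with a special role. Other members and the partner genes named were chosen after their values were seen. Alternatives changed the covariate, scaling, probe set, filter, test and arrays. Of the members' probe sets 0 had tied values in the Wilcoxon test, and 139 of all kept ones did and got a normal approximation. No protein or promoter sequences were used here. Positions come from RefSeq, Sscrofa11.1.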

Additional observations from a re-analysis of the deposited data

Results flagged for a closer look

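In 8 of 116 sets of 10 arrays, 1 array lay apart from the other 9 by Dixon's test of the gap against the range, which chance alone does in about 1 of 20 sets. HR replicate 1 was low in 3 genes of the MRPL1 block: in MRPL19 at 7.21 (other HR arrays 7.70 to 7.94), in MRPS16 at 7.53 (7.90 to 8.22) and in MRPS30 at 7.10 (7.56 to 7.99). LR replicate 9 was low in MRPL18 at 8.10 (other LR arrays 8.47 to 8.81), in MRPL34 at 8.71 (9.05 to 9.30) and in the mean of all members at 7.63 (7.77 to 7.87). LR replicate 1 was high in MRPL28 at 7.98 (7.21 to 7.61) and low in MRPL35 at 7.57 (7.86 to 8.19). HR replicate 1 and LR replicate 1 had the highest background control signal of their group and LR replicate 9 the lowest.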

How the results depend on the processing

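No paired analysis was possible because HR and LR are different animals and the labels give nothing that matches them in pairs. The replicate numbers used here only name the arrays.

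No member passed the adjusted threshold under any alternative but array weights, where 1 did (MRPS5, adjusted p = 0.0206), and leaving out each array in turn gave 0 to 0, with a smallest adjusted p of 0.0504 without HR replicate 1. How many of all probe sets passed with array weights was not counted, so this call has no background. The 6 members lower in HR at an unadjusted p under 0.05 became 0 with the title number, 0 with the background control signal, 1 with the first component and 12 with the choroid plexus markers as a covariate, 0 with arrays centred on the cytosolic ribosomal proteins, 3 with the exact Wilcoxon test, 16 with array weights, and 0 without HR replicate 5 and LR replicate 1, the 2 end arrays of the first component. Leaving out each array in turn gave 0 (without HR replicate 2) to 14 (without LR replicate 9). The 3 higher in HR became 0 with the title number, 6 with the choroid plexus markers, 13 with the cytosolic ribosomal protein centring and 6 with array weights, and 3 to 6 on leaving out each array (6 without HR replicate 1). For all probe sets the counts were 288 lower and 387 higher with the title number, 800 and 854 with the control signal, 1459 and 1771 with the first component, and 58 lower and 6124 higher with the cytosolic ribosomal protein centring. Under the other alternatives all probe sets were not counted, so the counts of members with array weights, the choroid plexus markers or the Wilcoxon test have no background.

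The members' median of -0.08 became -1.0181e-05 with the title number, 0.0017 with the control signal, -0.011 with the first component and 0.059 with the cytosolic ribosomal protein centring, and lay between -0.10 and -0.05 without each array. The median of the MRPL1 block (0.14) became -0.067 with the title number and -0.025 with the control signal, and that of the MRPS7 block (-0.12) became 0.0068, 0.0080 and, with the cytosolic ribosomal protein centring, 0.022. Both kept their sign without each array. The correlation between the blocks (-0.47) became 0.090 with the first component over all kept probe sets regressed out, -0.011 with the control signal and -0.33 with the title number. The mean pairwise correlation of the members moved by less than its spread under each alternative run. It averages over pairs within and between the blocks, and the correlations within the blocks fell with the first component or the control signal regressed out.

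Of 34 named members 14 kept the sign of their difference under every alternative run and 20 did not. Signs changed with the title number for MRPS35 (-0.067), MRPL39 (-0.029), MRPS14 (-0.097), MRPS16 (-0.051), MRPS12 (0.0028), MRPS10 (-0.078), MRPL17 (0.0051), MRPL34 (0.024), MRPS18B (0.076), MRPL41 (0.019), MRPL24 (0.064), MRPL14 (0.044), MRPL1 (-0.11), MRPL47 (-0.095), MRPL2 (0.0085), MRPL18 (0.022) and MRPL10 (0.042). With the control signal they changed for MRPS35 (-0.013), MRPS14 (-0.025), MRPS10 (-0.057), MRPL17 (0.0017), MRPL34 (0.049), MRPS22 (-0.011), MRPS6 (0.071), MRPS18B (0.0083), MRPL41 (0.030), MRPL24 (0.10), MRPL14 (0.017), MRPL1 (-0.078), MRPL47 (-0.16), MRPL18 (0.062) and MRPL10 (0.0045). With the first component they changed for MRPS10 (-0.023), MRPS22 (-0.0093), MRPS6 (0.034), MRPL24 (0.054), MRPL47 (-0.063), MRPL18 (0.018) and MRPL10 (0.0058). With the cytosolic ribosomal protein centring they changed for MRPL17 (0.0097), MRPL34 (0.033), MRPS6 (0.079), MRPS18B (0.037), MRPL41 (0.054), MRPL24 (0.092), MRPL14 (0.039), MRPS15 (0.033), MRPL18 (0.059) and MRPL10 (0.091). Without the 2 end arrays they changed for MRPS10 (-0.0019), MRPL24 (0.0025) and MRPL10 (0.042), with array weights for MRPL10 (0.044), and on leaving out each array MRPL24 ran from -0.094 to 0.0028 (without HR replicate 2). The causes were not tested. The title number nearly separates HR from LR, so changes with it as a covariate cannot be told apart from a loss of the group contrast. The alternatives without 2 end arrays and those of the blocks were chosen after seeing the data.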
